A study of Mus musculus with 16 samples.

Results

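The coronins are a family of actin-binding proteins, and their polysome-associated RNA was followed here in D1 medium spiny neurons of mice with and without the microRNA miR-128-2. Every probe set whose platform gene symbol named a coronin was taken, which gave 17 of 37112 probe sets and 7 of 16206 genes. The members were Coro2a with 1 probe set, Coro2b with 2, Coro1a with 3, Coro1b with 1, Coro1c with 2, Coro6 with 2 and Coro7 with 6. The family was chosen by a measured value, the adjusted p of Coro2a in the comparison of deletion with control, which lay just outside the threshold, so all coronin values in that comparison are a description and support no finding. The difference between the 2 experimental repeats, and the test of whether the deletion difference was unequal in the repeats, were not used in choosing the family. For Coro2a they are still not independent of the choice, because its adjusted p rests on the same spread between arrays. A low p favours a small spread, and with it a small interaction and a small SE of the repeat difference.

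D1 medium spiny neurons are the striatal projection neurons that bear the dopamine D1 receptor. Their ribosomes carried a tag, which allowed the RNA attached to polysomes in these cells to be pulled down from dissected striatum and measured on Affymetrix mouse arrays. The deletion group held 9 mice that carried the tagged ribosome and a homozygous deletion of miR-128-2 restricted to D1 neurons, 5 of them in experimental repeat 2 and 4 in repeat 1. The control group held 7 littermates that carried the tagged ribosome without the deletion, 3 in repeat 2 and 4 in repeat 1. All mice were C57BL6/J and 3 months old, and each array is called a biological replicate. The driver of the deletion is not given in the sources used here, and anything else that only the deletion mice carried cannot be told apart from the deletion. In RNA pulled down from tissue, fewer cells of a type and less RNA per cell cannot be told apart.

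Coronins carry a propeller of WD40 repeats and bind filamentous actin. They act with the Arp2/3 complex, which starts side branches on actin filaments, and with cofilin, which severs and disassembles filaments, and so take part in the turnover of branched actin. In neurons that turnover shapes growth cones and dendritic spines. The family is divided into type I (Coro1a, Coro1b, Coro1c and Coro6), type II (Coro2a and Coro2b) and type III (Coro7, which has a pair of propellers and is known from the Golgi apparatus).

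The products of the deleted locus are shown here beside those of its relative, because the loci share the sequence that pairs with target messages. Capitals mark the seed (bases 2 to 8). The sequences are those of RefSeq on GRCm38.p6. The 3p product of Mir128-2 lies at chr9:112118644-112118664 on the minus strand and its 5p product at chr9:112118679-112118701 on the same strand. A second locus, Mir128-1, holds a 3p product of identical sequence at chr1:128202404-128202424 on the plus strand and a 5p product at chr1:128202369-128202389, and the labels name no change to it. The 5p products of the loci share their seed and differ outside it. The arrays were not used to measure miR-128 itself, and whether coronin messages hold a match to either seed was not analysed here.
mmu-miR-128-3p: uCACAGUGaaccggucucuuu
mmu-miR-128-2-5p: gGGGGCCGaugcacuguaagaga
mmu-miR-128-1-5p: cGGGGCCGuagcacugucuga

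For every probe set the deposited log2 values had a median of 0 over the 16 arrays, so they show how mice differ and carry no absolute level. Over all genes, limma with experimental repeat as a term called 10 of 16206 genes, all higher in deletion mice, at an adjusted p under 0.05. The mean value of the measured D1 neuron markers (6 of 7) lay between -0.04 and 0.24 in deletion arrays and between -0.27 and 0.07 in control arrays, and that of Drd1 itself between -0.19 and 0.23 in deletion arrays and between -0.54 and 0.11 in control arrays. Since no absolute level remains, neither shows how far the pulldown enriched D1 neurons. A pair of control arrays stood apart in markers of oligodendrocytes, the myelin-forming cells (12 of 13 measured). The mean of that list lay between -0.31 and 0.42 in the 9 deletion arrays, and in the controls it was 1.47 in repeat 1 replicate 3, 1.37 in repeat 2 replicate 1 and at most 0.28 in the rest. The difference between 3′ and 5′ control probes, a sign of RNA quality, was taken on the centred values, so it only compares arrays with each other. It was 0.40 in control repeat 1 replicate 3, 0.41 in deletion repeat 1 replicate 4 and 1.17 in deletion repeat 2 replicate 2. The highest of all arrays was 1.82 in control repeat 2 replicate 1. The microglia and leukocyte list (7 of 12 measured) reached 0.21 in deletion arrays and 0.64 in control arrays. The D1 list itself was lowest in control repeat 2 replicate 1. Deletion minus control was negative for 6 of 6 cortical glutamatergic neuron markers (median -0.30, and -0.24 without this pair of arrays) and for 5 of 5 striatal interneuron markers (median -0.40, and -0.18 without the pair). The fits were repeated without these 2 control arrays, and the part of other cell types and of RNA quality in the results was not tested.

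Coro2a, a type II coronin known in human cells from focal adhesions and from its association with the NCoR corepressor, was the coronin whose values in deletion mice stood farthest from controls relative to their spread. In repeat 2 its log2 values were 0.15, 0.07, 0.02, 0.01 and -0.07 in deletion mice and 0.21, 0.60 and 0.34 in control mice. In repeat 1 they were -0.43, -0.46, -0.32 and -0.35 in deletion mice and -0.19, -0.14, -0.01 and 0.13 in control mice. Every deletion array lay below every control array of its own repeat, whereas arrays of different repeats overlapped. The repeat 2 means were 0.04 ± 0.08 in deletion mice (SD, n = 5) and 0.38 ± 0.20 in control mice (SD, n = 3). The repeat 1 means were -0.39 ± 0.07 in deletion mice and -0.05 ± 0.14 in control mice (SD, n = 4 each).

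The fitted difference of Coro2a, deletion minus control, was -0.34 ± 0.06 log2 (SE), a level of 0.789 times that of controls with a 95% interval of 0.723 to 0.860. Its limma adjusted p over all genes was 0.053, rank 11 of the 16206 genes by p and the lowest p among genes lower in deletion mice. The gene just inside the threshold, Ptpro, had an adjusted p of 0.0499, and the next lower gene outside it, Dusp11, had 0.067. Tested among probe sets in place of genes, the same Coro2a values had a limma adjusted p of 0.070. The authors' deposited table gives its probe set a p-value of 0.000133 for genotype. These numbers chose the family and are given for description only. Over the 16 arrays, which share their libraries with the marker lists, Coro2a correlated at r = 0.53 with the mean of the vascular list (3 of 7 measured), 0.47 with the cortical neuron list, 0.40 with the interneuron list, 0.14 with the oligodendrocyte list, -0.03 with the microglia and leukocyte list, -0.06 with the astrocyte list, -0.35 with the D2 neuron list and -0.51 with the D1 neuron list. In the vascular list Esam had a residual SD of 0.25, against 0.02 for Flt1 and 0.03 for Tek, so that list mean mostly followed 1 gene. The vascular mean lay between -0.26 and 0.07 in deletion arrays and between -0.01 and 0.13 in control arrays, and the cortical mean between -0.97 and 0.49 in deletion arrays and between -0.49 and 0.47 in control arrays. Group means were not subtracted for these correlations, so differences between genotypes and between repeats enter them. The part of these lists in the Coro2a values was not tested.

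The position of Coro2a relative to the threshold moved with the processing while its difference kept its sign. Its limma adjusted p was 0.040 with the median of each array subtracted (difference -0.34) and 0.021 with array weights (-0.39). It was 0.16 without the pair of control arrays rich in oligodendrocyte markers (-0.37), 0.15 after quantile normalization (-0.37) and 0.78 with no term for the repeat (-0.29). With each of the 16 arrays left out in turn the difference lay between -0.38 and -0.30 and the adjusted p between 0.058 and 0.17.

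**Figure D1:**
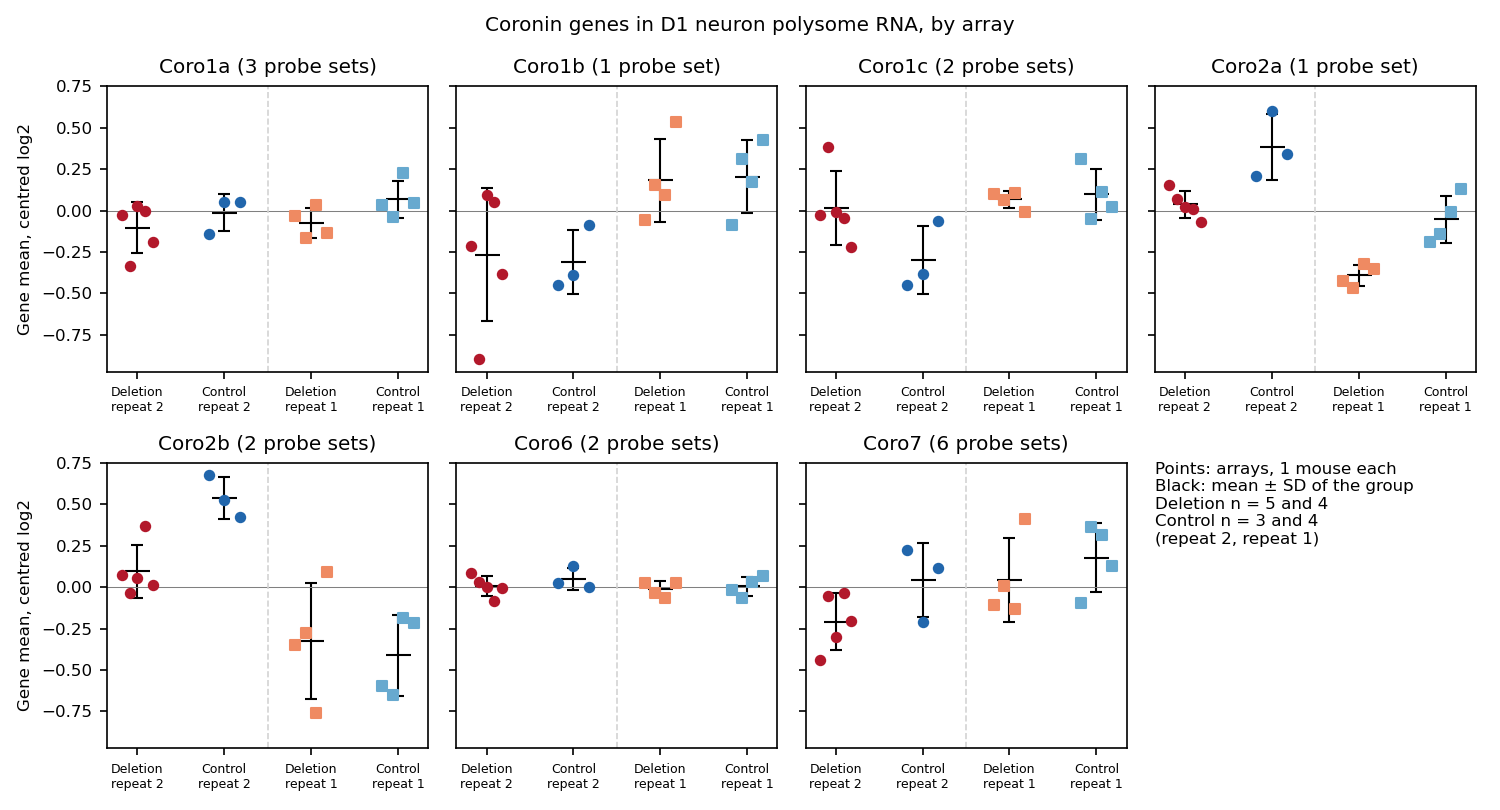
Log2 value (centred on the median of 16 arrays) of each coronin gene in every array, with 1 point per mouse, deletion left of control within each repeat, and horizontal lines at group means with bars of 1 SD. The Coro2a points of deletion mice, from -0.07 to 0.15 in repeat 2 and from -0.46 to -0.32 in repeat 1, sit below all control points of the same repeat.

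Coro2b, the other type II coronin and one expressed in brain, did not show the same pattern in both repeats. The means of its probe sets in repeat 2 were 0.08, -0.04, 0.06, 0.37 and 0.01 in deletion mice and 0.67, 0.52 and 0.42 in control mice. In repeat 1 they were -0.35, -0.28, -0.76 and 0.09 in deletion mice and -0.60, -0.65, -0.19 and -0.22 in control mice. All deletion arrays of repeat 2 lay below all control arrays of that repeat, although the highest, replicate 4 at 0.37, came close to the lowest control at 0.42. The groups of repeat 1 overlapped. Deletion minus control was -0.44 in repeat 2 and 0.09 in repeat 1, and -0.17 ± 0.13 (SE) over both. Without the pair of control arrays it was -0.08. The 2 Coro2b probe sets moved together over the 16 arrays (Pearson r = 0.87, and 0.64 once the mean of each genotype and repeat was subtracted). The suffix _x_at of 1434326_x_at marks a probe set that can match unrelated sequences.

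Among the type I coronins, Coro1a, which is best known from leukocytes, where it acts in T cell survival and signalling, had unlike probe sets. In repeat 2 its probe set 1455269_a_at had values of -0.11, -0.37, 0.03, -0.0015 and -0.17 in deletion mice and 0.18, 0.16 and 0.20 in control mice. In repeat 1 it had -0.20, -0.26, 0.0015 and -0.15 in deletion mice and 0.05, -0.09, 0.41 and 0.07 in control mice. The groups did not overlap in repeat 2 and overlapped in repeat 1 through control replicate 2. The difference of this probe set was -0.28 ± 0.07 (SE) with an unadjusted limma p of 0.0015 and an adjusted p of 0.36, and without the pair of control arrays it was -0.23. The other 2 Coro1a probe sets differed by -0.06 ± 0.12 (-0.12 without that pair) and -0.01 ± 0.02 (SE), and pairs of Coro1a probe sets correlated between -0.34 and 0.43 over the 16 arrays. The gene mean differed by -0.12 ± 0.06 (SE). The Coro1a value moved with the mean of the microglia and leukocyte list at r = 0.38 for 1455269_a_at and at -0.27 and 0.03 for the others, over 16 arrays that share their libraries with the list. For 1455269_a_at the correlations largest in size were those with the D1 list (r = -0.62), the cortical list (0.57) and the oligodendrocyte list (0.50). Differences between genotypes and repeats enter these correlations too, as group means were not subtracted.

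Coro1c, a widely expressed type I coronin, had 2 probe sets that ran opposite ways. The values of 1449660_s_at in repeat 2 were 0.16, 0.41, 0.17, -0.01 and -0.20 in deletion mice and -1.17, -0.47 and -0.21 in control mice. In repeat 1 they were 0.11, -0.01, 0.35 and -0.18 in deletion mice and 0.08, 0.01, -0.75 and 0.20 in control mice. The lowest values, -1.17 and -0.75, were those of the 2 control arrays with the highest oligodendrocyte markers, and the array at -1.17 also had the highest difference between 3′ and 5′ control probes (1.82). The other probe set, 1419911_at, was highest at 0.97 in 1 of these arrays, control repeat 1 replicate 3, followed by control repeat 1 replicate 1 at 0.54.

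For 1449660_s_at deletion minus control was 0.45 ± 0.17 (SE) with all arrays and 0.19 ± 0.12 without that pair. For 1419911_at it was -0.17 ± 0.16 (SE) with all arrays and -0.00082 without them. The correlation of the 2 probe sets was -0.36 over 16 arrays and 0.26 over the other 14. The gene mean, which averages over both, differed by 0.14 ± 0.09 (SE) with all arrays and by 0.09 without the pair. The suffix _s_at marks a probe set that can match several transcripts.

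Coro1b, the type I coronin known for loosening Arp2/3 branches and bringing a cofilin-activating phosphatase to them, had values in repeat 2 of -0.21, -0.89, 0.10, 0.05 and -0.38 in deletion mice and -0.45, -0.39 and -0.09 in control mice. In repeat 1 it had -0.05, 0.15, 0.10 and 0.53 in deletion mice and -0.09, 0.31, 0.17 and 0.43 in control mice. The genotypes overlapped in both repeats, and deletion minus control was 0.01 ± 0.14 (SE), with a sign that changed among the fits that left out 1 array (from -0.05 to 0.08), and -0.03 without the pair of control arrays. Coro6, a type I coronin described in muscle, varied little. Its gene means lay between -0.09 and 0.08 in deletion arrays and between -0.06 and 0.13 in control arrays. Deletion minus control was -0.03 ± 0.03 (SE). Its residual SD over arrays was 0.056, at percentile 22.6 of all genes, and the 1435288_at probe set of Coro1a was similar at 0.044. Centred values do not show whether such probe sets were above background.

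Coro7 had the most probe sets, and its 6 probe sets correlated with each other between -0.28 and 0.97 over the 16 arrays. All 6 were negative in deletion minus control, between -0.31 and -0.09, and the gene mean was -0.19 ± 0.10 (SE). The probe sets 1428148_s_at, 1437146_x_at and 1437524_x_at correlated with each other at r = 0.88 to 0.97, so the 6 signs are not independent. Without the pair of control arrays the 6 lay between -0.22 and -0.0069, and the gene mean was -0.12. The 2 probe sets with the suffix _x_at, which can match unrelated sequences, differed by -0.31 ± 0.17 and -0.29 ± 0.15 (SE) with all arrays and by -0.12 and -0.14 without the pair of control arrays. Over the 16 arrays both correlated at r = 0.79 with the microglia and leukocyte list and at 0.75 with the oligodendrocyte list, and at -0.68 and -0.70 with the D1 list. Here too group means were not subtracted, so differences between genotypes and repeats enter these values.

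In counts, 5 of 7 coronin genes and 15 of 17 probe sets were negative in deletion minus control, with a median over the genes of -0.12 against -0.0026 over all genes. Of all 16206 genes, 8867 were negative, and Coro7 accounts for 6 of the 17 probe sets. Leaving out the pair of control arrays, 6 of 7 genes and 16 of 17 probe sets were negative, with a median over the genes of -0.08. No coronin passed limma's adjusted p of 0.05: 0 of 7 genes, where 0.0617% of all genes passed, and 0 of 17 probe sets, where 0.0323% of all probe sets passed. At an unadjusted p under 0.05 there were 1 gene (Coro2a, background 8.69%) and 3 probe sets (those of Coro2a, Coro1a 1455269_a_at and Coro1c 1449660_s_at, background 6.84%). The authors' deposited table holds a p-value under 0.05 for 3 of the 17 coronin probe sets and for 6.16% of all probe sets. Coro2a was the single coronin with every deletion array below every control array in both repeats, a pattern of 0.0432% of all genes, and no coronin showed the reverse, a pattern of 0.105% of all genes. In repeat 2 alone, all deletion arrays lay below all controls in Coro1a 1455269_a_at, Coro2b 1434326_x_at, Coro7 1428148_s_at and Coro7 1437146_x_at. They lay above all controls of that repeat in Coro1c 1449660_s_at. In repeat 1 alone, they lay below all controls in Coro7 1428150_at. The share of all probe sets so separated in a single repeat is not given here, so these separations have no background. Since this comparison led to the choice of the family, nothing is read from these shares.

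**Figure D2:**
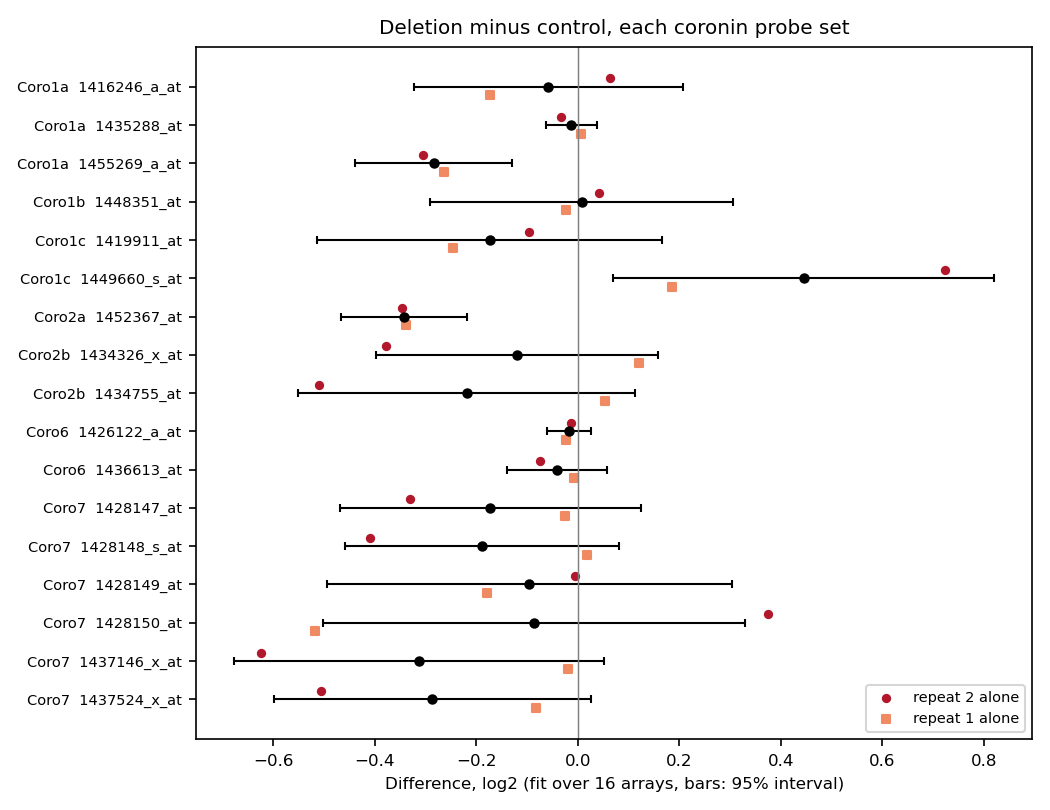
Deletion minus control (log2) for each of the 17 coronin probe sets, with points at the limma estimate from 16 arrays and bars at the 95% interval, and smaller points for repeat 2 alone and repeat 1 alone. The intervals of Coro2a (-0.47 to -0.22) and Coro1a 1455269_a_at (-0.44 to -0.13) lie below 0, that of Coro1c 1449660_s_at (0.07 to 0.82) lies above it, and the others include 0.

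The experimental repeats differed in 3 of the 7 coronin genes, a comparison that was tested because the choice of the family did not use this difference. For Coro2a the residual spread in this test is the one behind the p that led to the choice. Coro2a and Coro2b were higher in repeat 2 than in repeat 1, as were 7.84% of all genes, and Coro1b was lower, as were 7.1%. Repeat 2 minus repeat 1 was 0.43 ± 0.06 for Coro2a (SE, limma adjusted p = 0.00030), 0.65 ± 0.13 for Coro2b (adjusted p = 0.0040) and -0.48 ± 0.14 for Coro1b (adjusted p = 0.030). Of all genes, 14.9% passed the same limma test. The remaining genes did not pass it: Coro1c -0.20 ± 0.09 (adjusted p = 0.17), Coro7 -0.20 ± 0.10 (0.20), Coro1a -0.05 ± 0.06 (0.55) and Coro6 0.03 ± 0.03 (0.48). All 3 kept their direction after quantile normalization and with array medians subtracted, with limma adjusted p of at most 0.030. The labels do not say what set the repeats apart.

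The type II coronins kept their call in more fits than Coro1b did. Coro2a and Coro2b passed in all 16 fits that left out 1 array, and Coro1b in 11 of 16, with limma adjusted p between 0.020 and 0.062. Coro1b was lost without deletion repeat 2 replicate 5, deletion repeat 1 replicate 4, control repeat 2 replicate 1 or 2, or control repeat 1 replicate 4. Without the pair of control arrays the limma adjusted p was 0.00050 for Coro2a (0.47), 0.012 for Coro2b (0.61) and 0.075 for Coro1b (-0.45). Coro1c passed in 1 of 16 such fits, that without deletion repeat 2 replicate 2 (adjusted p = 0.029).

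Among probe sets, 5 of 17 differed between the repeats, where 11.9% of all probe sets did. The 3 higher in repeat 2 were those of Coro2a and Coro2b (6.35% of all probe sets were higher), and the 2 lower were that of Coro1b and 1 of Coro7 (5.53% were lower). The Coro2b probe sets were higher in repeat 2 by 0.70 ± 0.13 (SE, limma adjusted p = 0.0026) and 0.60 ± 0.15 (adjusted p = 0.020), and the second of these, 1434755_at, had an adjusted p of 0.055 without the pair of control arrays. The probe set of Coro1b had a limma adjusted p of 0.037 and passed in 6 of the 16 fits with 1 array left out.

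The Coro7 probe set 1428150_at had the farthest separation of the repeats. In repeat 2 it had -0.69, -0.92, -0.31, -0.05 and -1.08 in deletion mice and -1.34, -1.14 and -0.46 in control mice. In repeat 1 it had 0.24, 0.05, 0.26 and 0.36 in deletion mice and 0.64, 0.96, 0.58 and 0.80 in control mice. All 8 arrays of repeat 2 lay below all 8 of repeat 1, a separation found in 2.93% of all probe sets and in no other coronin probe set. Repeat 2 minus repeat 1 was -1.22 ± 0.19 (SE, limma adjusted p = 0.0010), a level 0.428 times that of repeat 1, and the adjusted p was 0.0034 without the pair of control arrays (-1.10). The 5 other Coro7 probe sets differed between repeats by -0.25 to 0.12 and did not pass. Taken as the median over its probe sets, Coro7 differed by -0.03, and taken by its most variable probe set by -1.22.

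**Figure D3:**
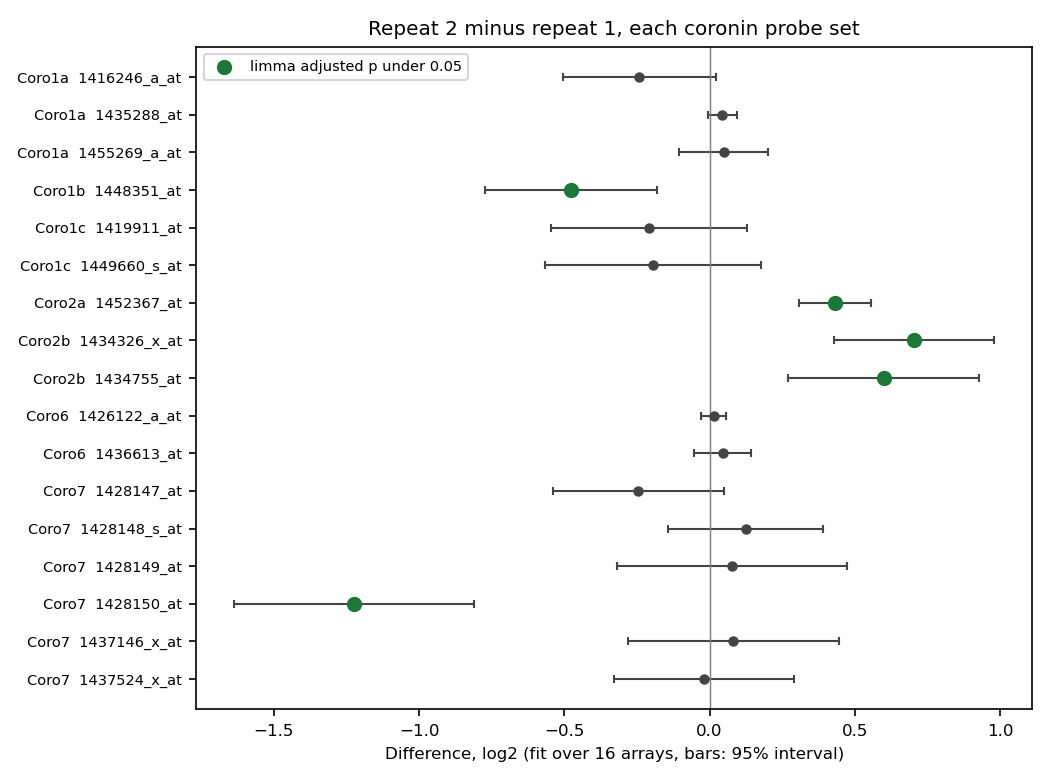
Repeat 2 minus repeat 1 (log2) for each of the 17 coronin probe sets, with points at the limma estimate from 16 arrays and bars at the 95% interval. Larger green points mark the 5 probe sets with a limma adjusted p under 0.05, from -1.22 for Coro7 1428150_at to 0.70 for Coro2b 1434326_x_at.

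The deletion difference was then compared between the repeats by the interaction of genotype and repeat. Its limma adjusted p passed for 0 of 7 genes, 0 of 17 probe sets and 0 of all genes. At an unadjusted p under 0.05 there were 1 coronin gene, where 4.22% of all genes lay, and 2 coronin probe sets, where 3.85% of all probe sets lay. The gene was Coro2b, at -0.53 ± 0.23 (SE, limma adjusted p = 0.93). The probe sets were Coro2b 1434326_x_at (-0.50 ± 0.23) and Coro7 1428150_at (0.89 ± 0.32), both with a limma adjusted p of 0.89. Without the pair of control arrays they were at -0.46 and 0.77, with unadjusted limma p of 0.085 and 0.0504.

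For Coro7 1428150_at deletion minus control was 0.37 in repeat 2, where the groups overlapped, and -0.52 in repeat 1, where all deletion arrays lay below all control arrays. The share of all probe sets separated in a single repeat is not given here. By the interaction, Coro2a stood at the other end, with -0.35 in repeat 2 and -0.34 in repeat 1. Its interaction was -0.01 ± 0.12 (SE) with a 95% interval of -0.27 to 0.25, which does not show that the repeats were alike, and it was -0.11 without the pair of control arrays. The choice of the family by the p of Coro2a favoured a small interaction for this gene. Deletion minus control had the same sign in both repeats for 4 of 7 coronin genes, all negative (Coro1a, Coro2a, Coro6 and Coro7). Coro6 was near 0, at -0.04 in repeat 2 and -0.02 in repeat 1. Among the 17 probe sets, 9 were negative in both repeats and 1 was positive in both. The share of all genes with the same sign is not given here, so nothing is read from these counts.

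**Figure D4:**
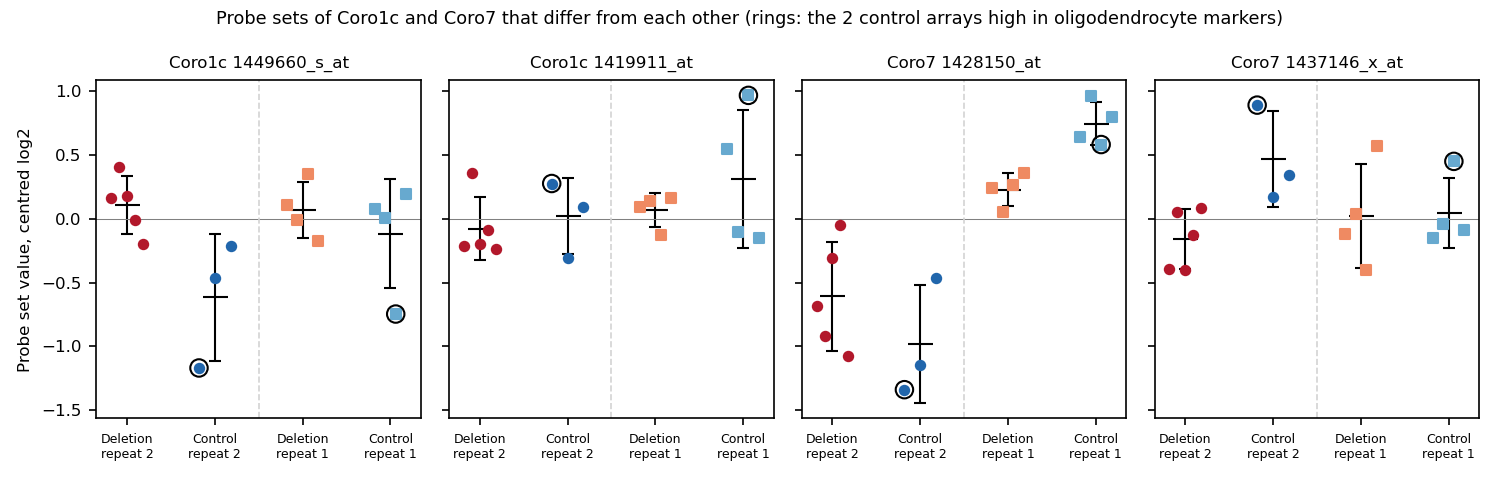
Log2 values by array of coronin probe sets, chosen after their values were seen, whose genotype difference or probe set mates were unequal, with 1 point per mouse, deletion left of control within each repeat, bars at the mean and SD, and rings on the 2 control arrays high in oligodendrocyte markers. Coro7 1428150_at separates the repeats (-1.34 to -0.05 in repeat 2 and 0.05 to 0.96 in repeat 1), and the lowest points of Coro1c 1449660_s_at, -1.17 and -0.75, are ringed.

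Coro2a and Coro2b, both higher in repeat 2, correlated at r = 0.69 over the 16 arrays, and at r = 0.14 once the mean of each genotype and repeat was subtracted. By the same measure Coro6 was the coronin most like Coro2a (r = 0.66). Coro6 and Coro1a had a residual SD below that of the median gene and did not enter the comparison over all genes. Coro2a was also below that median and was kept only as the reference of the comparison. Of the 8103 genes with a residual SD at or above the median, those most like Coro2a within groups of the same genotype and repeat were Rnf135 (r = 0.79), Zxda (0.78), Rnls (0.77), Tub (0.77) and Zfp763 (0.77). The most opposite were Gart (r = -0.81), Zfp444 (-0.79), E4f1 (-0.76), Os9 (-0.75) and Slc66a1 (-0.74). These are the extremes of the correlations of 8103 genes over 16 arrays of the same libraries. Without the 2 arrays farthest in Coro2a, control repeat 2 replicate 2 and control repeat 1 replicate 4, the 5 positive ones lay between 0.56 and 0.70.

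Genes whose products work beside the coronins were taken as 6 lists, with 52 of 63 members measured. In deletion minus control limma called 0 of the 52, 4 (Wasl, Pick1, Limk2 and Cap1) had an unadjusted p under 0.05, and 31 were positive and 21 negative, with a median of 0.03. In the fit without the pair of control arrays 25 were positive and 27 negative, and 10 had the opposite sign. In the Arp2/3 complex itself (6 of 10 measured) 5 were positive and 1 negative, with values of 0.09 for Actr3, 0.10 for Arpc1a and -0.06 for Arpc2. Without the pair 2 were positive and 4 negative, with 0.02 for Actr3, -0.06 for Arpc1a and -0.07 for Arpc2, and the median was 0.09 with all arrays and -0.05 without the pair. Of the activators of the complex (14 of 17 measured) 6 were positive and 8 negative. Wasl, which encodes N-WASP, differed by -0.14 ± 0.05 (SE, limma adjusted p = 0.45), and the WAVE genes Wasf1 and Wasf2 by -0.09 and -0.13. Without the pair Wasf2 was at -0.02.

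The 3 measured genes (of 4) in the list of Arp2/3 inhibitors and debranching factors were all positive. Pick1, whose product has been reported to bind and inhibit Arp2/3, differed by 0.38 ± 0.13 (SE, limma adjusted p = 0.39). Arpin differed by 0.23 and Gmfb by 0.17. Arpin was at 0.08, Gmfb at 0.11 and Pick1 at 0.40 without the pair of control arrays. In the cofilin cycle (15 of 16 measured) 8 were positive and 7 negative. The cofilin genes Cfl1 and Cfl2 differed by -0.09 and 0.02, and Dstn, which encodes destrin, by 0.12. Cfl2 was at 0.0022 and Dstn at 0.01 without the pair. Limk2, a kinase that inactivates cofilin, differed by 0.23 ± 0.05 (SE, limma adjusted p = 0.21). Cap1, which recycles actin monomers, differed by 0.38 ± 0.15 (SE, limma adjusted p = 0.48), and by 0.25 without the pair.

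Actins and the proteins that bind monomers, cap or sever (10 of 10 measured) gave 6 positive and 4 negative values, with -0.19 for Actb, 0.03 for Actg1 and -0.08 for the profilin gene Pfn1. Without the pair of control arrays 3 were positive and 7 negative, and Actg1 was at -0.07. Of the NCoR complex that Coro2a is known to associate with, 4 of 6 genes were measured. They were positive in 3 and negative in 1, with 0.12 for Hdac3, 0.04 for Tbl1x and 0.10 for Tbl1xr1. Without the pair 2 were positive and 2 negative, with -0.01 for Hdac3 and 0.08 for Tbl1x. None of these lists is set apart from all genes by a test here, and the genes with an unadjusted p under 0.05 were 4 of 52 beside 8.69% of all genes.

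**Figure D5:**
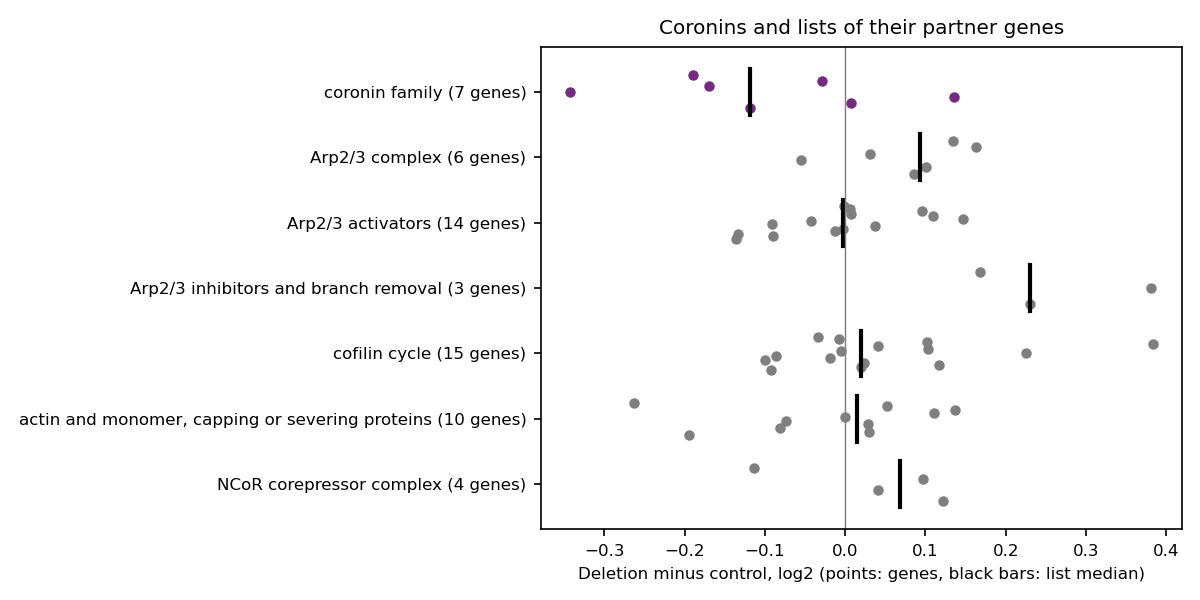
Deletion minus control (log2, limma estimate from 16 arrays) of each measured gene in the coronin family and the 6 partner lists, with 1 point per gene and the median of each list marked. Coro2a at -0.34 is the lowest of the 7 coronins, and Pick1 and Cap1, both at 0.38, are the highest of the partner genes.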

How the data were processed

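Titles gave the genotype, the repeat and the replicate number of each array. GCOS 1.4 and GCRMA are named per the submitters' processing notes, without their roles. The deposited values are log2 expression that the authors centred, as all 37174 probe sets had a median within 1e-06 of 0. The authors also deposited p-values of genotype, so named per the file headers. The 16 further columns of per-sample values beside those p-values were not used. After 62 Affymetrix controls were left out, 37112 probe sets remained, of which the platform annotation gave 1 gene for 29680, several for 819 and none for 6613. Symbols of 29539 matched the GRCm38.p6 RefSeq table by gene identifier. No 2 arrays were alike (correlations between arrays from -0.46 to 0.48).

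A gene's value was the mean over its probe sets. No filter was applied, and all 17 coronin probe sets were tested. Differences were fitted over all 16 arrays with limma 3.58.1 in R 4.3.3 (lmFit, eBayes, genotype and experimental repeat as terms, 2-sided, checked on simulated data), with Benjamini-Hochberg adjustment over all 16206 genes or 37112 probe sets and a threshold of 0.05. Precision is limited by how many arrays there were. The rule for named genes took all coronins, from each partner list the called members or else the first 3 measured in list order, the 5 genes most and the 5 least like Coro2a, and the first measured marker of a list. Wasl, Pick1, Limk2 and Cap1, the neighbours of the threshold and the partner genes named for the repeats were chosen after their values were seen. The coronins and all lists were chosen with earlier results of these data known.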

Additional observations from a re-analysis of the deposited data

Results flagged for a closer look

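In groups of 4 or 5 arrays, 66 sets of coronin values were examined for 1 array far from the others of its group by Dixon's criterion at 95%, which chance alone meets in about 1 set in 20. It was met in 4. Coro2b, as the gene mean, was 0.37 in deletion repeat 2 replicate 4 and between -0.04 and 0.08 in the other 4 deletion mice of that repeat. The Coro1a probe set 1416246_a_at was 0.29 in control repeat 1 replicate 3, an array high in oligodendrocyte markers, and between 0.05 and 0.07 in the other 3 controls of that repeat. The Coro1c probe set 1419911_at was 0.35 in deletion repeat 2 replicate 2, against -0.24 to -0.09 in the others of its group. The Coro7 probe set 1428149_at was 0.98 in the same array, against -0.14 to 0.03 in the others. That array also had the second-highest difference between 3′ and 5′ control probes, 1.17, after 1.82 in control repeat 2 replicate 1. The part of this in the values was not tested.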

How the results depend on the processing

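Of the 16206 genes, deletion against control called 10 as reported. It called 4 with no term for the repeat, 2 with the ordinary variance, 16 with array weights, 1 without the 2 control arrays high in oligodendrocyte markers, and 2 to 10 with 1 array left out. Of the probe sets it called 12 as reported, 1 with no repeat term, 0 with the ordinary variance, 27 with array weights, 7 with array medians subtracted, 0 without the 2 control arrays and 0 to 18 with 1 array left out. With the replicate number as a block it called 1 gene and 0 probe sets, and Coro2a had -0.32 (limma adjusted p = 0.27). Deviations of same-numbered mice of the genotypes correlated at r from -0.27 to 0.39, over 0.1 in 3 of 7 pairs, and 5 of 14 arrays were closest to their own number. So few pairs cannot tell whether the number marks a pairing, and this was not tested. The interaction called 0 genes as reported, 4 without the 2 control arrays and 0 to 3 with 1 array left out. The repeat difference called 2421 genes as reported and 1896 to 2760 otherwise. Coro1c was 0.14 as a gene mean and 0.45 by its most variable probe set. Coro1b, near 0, was the coronin gene whose sign of deletion minus control varied between fits, and it was -0.03 without the 2 control arrays. The cause of these changes was not tested. Fits of coronin probe sets for the repeats and the interaction without the 2 control arrays, and the repeat fits with 1 array left out, were added after the data were seen.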

Other observations

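Between the experimental repeats, limma called 7 of the 52 partner genes (13.5%, where 14.9% of all genes were called), 5 higher in repeat 2 and 2 lower. The higher ones were Pick1 by 0.61 ± 0.12 (SE, limma adjusted p = 0.0043), Pfn1 by 0.52 ± 0.12 (adjusted p = 0.0096), the cofilin kinase gene Limk1 by 0.39 ± 0.11 (adjusted p = 0.027), Wipf1 by 0.31 ± 0.10 (adjusted p = 0.049) and the WAVE complex gene Abi1 by 0.26 ± 0.06 (adjusted p = 0.010). The lower ones were Arpc5, a subunit of Arp2/3, at -0.67 ± 0.14 (SE, limma adjusted p = 0.0053) and Tbl1x of the NCoR complex at -0.27 ± 0.08 (adjusted p = 0.040). The interaction of genotype and repeat called 0 of the 52, as it called 0 of all genes (4.22% at an unadjusted p under 0.05).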
